A study of Mus musculus with 2 samples.

Results

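The transcripts of 9 genes of the insulin-like growth factor (IGF) system were followed across the cells of the neonatal mouse pituitary. They were the ligand Igf1, the receptors Igf1r and Igf2r, and the binding proteins Igfbp2, Igfbp3, Igfbp4, Igfbp5, Igfbp6 and Igfbp7. They were chosen by symbol, as 9 of the 31055 features in the count matrices, and each was detected in both libraries. The cells were GFP-positive cells sorted from Sox9iresGFP/+ pituitaries at postnatal day 3, profiled as 1 library of 3 pooled male pituitaries and 1 library of 3 pooled female pituitaries. Both libraries carried this genotype, and no other genotype, treatment or age was compared. GFP made from the Sox9 locus outlasts SOX9 itself, so the sorted fraction held more than the stem cells that make SOX9 at the time of the sort.

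IGF1 signals through IGF1R, a receptor tyrosine kinase that acts on the PI3K-AKT and MAPK pathways, whereas IGF2R takes IGF2 to the lysosome. The IGF binding proteins are secreted, hold IGFs outside the cell and prolong or limit their action. In the pituitary, IGF1 made by the liver under growth hormone feeds back on the cells that secrete growth hormone, and IGF1 is also made locally.

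Cells were placed in classes by the raw unique molecular identifier (UMI) counts of marker genes, and none of the 9 genes was a marker. Stem cells carried at least 2 Sox2 UMIs and at least 3 UMIs over Sox9, Ednrb, Aldh1a2 and Mia, with Lef1 at 0. Differentiating cells carried Lef1 and at least 5 UMIs over Lef1, Gadd45g, Cdkn1a, Dll1, Shh and Smoc2. Endocrine cells fell into a gonadotroph, a POU1F1 and a POMC lineage. The gonadotroph lineage carried at least 20 Cga UMIs and fewer than 3 Pou1f1 UMIs. The POU1F1 lineage, which makes growth hormone, prolactin and thyrotrophin, carried at least 3 Pou1f1 UMIs. The POMC lineage carried at least 20 Pomc UMIs and at least 2 UMIs over Pax7, Tbx19, Pcsk2 and Oacyl together. Mesenchymal cells carried at least 10 UMIs over at least 3 of 9 genes such as Dcn and Col1a1. Pituicyte-like cells, named after the glia of the posterior pituitary, carried at least 3 UMIs over at least 2 of Rax, Nkx2-1, Lhx2, Col25a1 and Scn7a.

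The male library held 10410 cells with a median of 8902.5 UMIs and the female library 5711 cells with a median of 9789 UMIs, and 18 barcodes occurred in both. The labels call the cells stem cells, but 28.3% of male and 57.7% of female cells met the stem thresholds. In the male and female library, stem cells numbered 2941 and 3298, differentiating cells 1130 and 826, endocrine cells 1710 and 476 and mesenchymal cells 625 and 299. No class took 34.7% of male and 12.4% of female cells, whose median depth was 1379 and 8032 UMIs. Epcam, an epithelial gene that no threshold used, stood at 2294 and 2194 counts per 1e6 UMIs (CPM) in stem and 85.3 and 10.3 in mesenchymal cells. Pituicyte-like cells were 10 male cells and 0 female cells, with the anterior pituitary genes Pitx1 and Lhx3 at 0.

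The promoter sequences of 5 binding proteins are shown, taken as 2 sets by their levels across the classes. Igfbp4, Igfbp6 and Igfbp7 were high in mesenchyme and low in the epithelium, and Igfbp2 and Igfbp5 were the main binding proteins of stem cells. Of the 6 classes found in both libraries, Igfbp2 and Igfbp5 too were highest in mesenchymal cells. Each line gives the 250 bases before the RefSeq start (GRCm38.p6) on the strand of the gene. They lie at chr11:99040994-99041243 (+ strand), chr15:102143936-102144185 (+ strand), chr5:77408046-77408295 (- strand), chr1:72824230-72824479 (+ strand) and chr1:72874866-72875115 (- strand). All 9 genes matched the RefSeq promoter table, and of the 2 windows of Igfbp2 the one nearest to the start of the annotated gene was taken. Capitals mark TATAAA, the letters of a TATA box, GGGCGG, the letters of a GC box, and CAGCTG, the letters of an E-box, each on either strand.
Igfbp4: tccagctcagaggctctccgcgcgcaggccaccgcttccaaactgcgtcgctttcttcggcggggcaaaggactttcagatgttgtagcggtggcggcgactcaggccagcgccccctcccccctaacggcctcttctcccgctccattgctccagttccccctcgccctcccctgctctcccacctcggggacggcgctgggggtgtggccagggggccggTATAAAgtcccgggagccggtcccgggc
Igfbp6: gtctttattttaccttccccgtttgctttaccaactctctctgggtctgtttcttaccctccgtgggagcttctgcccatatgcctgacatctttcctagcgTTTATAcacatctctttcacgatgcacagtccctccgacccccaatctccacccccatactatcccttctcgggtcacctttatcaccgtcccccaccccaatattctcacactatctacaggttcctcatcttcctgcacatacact
Igfbp7: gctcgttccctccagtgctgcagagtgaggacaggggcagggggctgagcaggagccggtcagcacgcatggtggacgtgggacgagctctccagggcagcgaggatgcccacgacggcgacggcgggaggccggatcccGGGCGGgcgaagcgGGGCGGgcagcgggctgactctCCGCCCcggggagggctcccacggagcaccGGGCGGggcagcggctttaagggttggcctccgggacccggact
Igfbp2: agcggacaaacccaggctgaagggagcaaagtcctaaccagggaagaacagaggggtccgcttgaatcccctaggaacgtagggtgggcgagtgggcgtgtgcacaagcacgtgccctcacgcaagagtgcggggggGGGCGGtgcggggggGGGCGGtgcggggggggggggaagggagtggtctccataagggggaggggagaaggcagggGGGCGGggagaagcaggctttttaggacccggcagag
Igfbp5: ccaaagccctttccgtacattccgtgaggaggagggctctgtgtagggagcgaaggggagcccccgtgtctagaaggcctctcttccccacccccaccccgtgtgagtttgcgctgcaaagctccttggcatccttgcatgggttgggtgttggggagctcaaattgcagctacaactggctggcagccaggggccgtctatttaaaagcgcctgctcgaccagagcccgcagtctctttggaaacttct

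TATAAA occurred in 12.4% of all 32851 promoter windows of this length, GGGCGG in 32.7% and CAGCTG in 13.0%. Among the 9 genes TATAAA was found in Igfbp4, 28 bases before the start, and in Igfbp6, 148 bases before it. GGGCGG occurred 4 times before Igfbp7, 3 times each before Igfbp2 and Igf2r, and 2 times before Igf1r, and CAGCTG occurred before Igf1. Igfbp4, Igfbp6 and Igfbp7 held no motif in common. Igfbp2 (mm10 chr1:72824503-72852474, + strand) and Igfbp5 (chr1:72857932-72874884, - strand) are neighbours whose 3′ ends face each other across 5457 bases, with 0 annotated genes between them. A match of letters is a description and not a binding site.

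Levels are given in CPM, the UMIs of a gene over all UMIs of the class in that library times 1e6, first for the male and then for the female library. Each UMI stands for 1 captured molecule read at its 3′ end, so levels were not divided by gene length. Limits are exact 95% limits that cover counting error only. Classes were compared with edgeR's quasi-likelihood test on the UMIs summed over each class in each library, with library as a block. A gene was called at a Benjamini-Hochberg adjusted p under 0.05 over all 15188 genes tested together with a change of at least 2-fold. With library as a block, these p-values measure how unevenly class differences held in the 2 libraries, which differ in sex. They do not measure the spread between animals, and cells were not used as replicates. Positions are those of GENCODE vM21 on mm10.

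Igf1 (chr10:87858265-87937042, + strand) was highest in mesenchymal cells among the 6 classes found in both libraries, at 63.7 and 65.8 CPM. The POU1F1 lineage followed with 25.5 and 32.9 CPM, then stem cells with 13.2 and 21.1 CPM. Differentiating cells held 1.76 and 2.35 CPM and the POMC lineage 1.18 and 1.13 CPM. The order was the same in both libraries and ended with the gonadotroph lineage, at 0.662 CPM in the male library and 0 UMIs in the female library, where 3 UMIs would have been 1.49 CPM. From the differentiating cells down, neighbours in this order had overlapping limits.

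From stem to differentiating cells Igf1 fell by 2.98 ± 0.20 (SE) on the log2 scale, with an adjusted p of 1.1e-07 by edgeR's quasi-likelihood test. In mesenchymal cells it was higher than in stem cells by 2.0 ± 0.14 (adjusted p = 9.7e-08, edgeR). Endocrine cells as a whole differed from stem cells by -0.55 ± 0.14 (adjusted p = 0.0050, edgeR), which is under 2-fold. That sum joined lineages far apart from each other. In a finer fit over 15032 genes the gonadotroph lineage differed from the POU1F1 lineage by -5.51 ± 0.28 and the POU1F1 lineage from the POMC lineage by 4.22 ± 0.33 (adjusted p = 4.4e-11 and 7.8e-09, edgeR).

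Within stem cells Igf1 moved with Ednrb, the endothelin receptor B gene. Stem cells outside the cell cycle with at least 2 Ednrb UMIs (Ednrb-rich, 397 and 974 cells) had 36.4 and 40.4 CPM of Igf1. Those with at least 3 Aldh1a2 UMIs and no Ednrb UMI (Aldh1a2-rich, 961 and 784 cells) had 7.87 and 9.56 CPM. The ratio was 4.62 (limits 3.53 to 6.09) in the male and 4.23 (limits 3.28 to 5.52) in the female library, and the edgeR difference was 2.06 ± 0.14 on the log2 scale (adjusted p = 3.3e-08). Of the 9 genes this was the 1 called higher in Ednrb-rich cells, with 0 called lower, where 1.78% of all genes were called higher and 1.16% lower.

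The share of stem cells with Igf1 followed the level. With every cell thinned to 5000 UMIs, Igf1 was seen in 16.5% and 17.0% of Ednrb-rich and 4.15% and 3.25% of Aldh1a2-rich cells (27.7% and 26.8%, and 7.49% and 7.27%, without thinning). In the gonadotroph lineage, where Igf1 was lowest, the thinned share was 0.256% and 0%, at a median depth of 13969 and 14397 UMIs against 8900 and 8666 UMIs in Ednrb-rich cells. Cycling stem cells had 9.64 and 13.5 CPM and the remaining stem cells 14.4 and 17.8 CPM. The 9 mesenchymal markers summed to 31.4 and 29.1 CPM in Ednrb-rich, 24.0 and 14.3 CPM in Aldh1a2-rich and 15979.9 and 18664 CPM in mesenchymal cells.

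Igf1 in the POU1F1 lineage came from few cells. A UMI was present in 41 and 29 of its 594 and 230 cells. The 12 male and 7 female cells with at least 5 Igf1 UMIs held 81.0% and 66.0% of the Igf1 UMIs of the lineage. None of them was among the cells with the highest Scrublet doublet scores. The growth hormone gene Gh stood at 292 and 124 CPM in them, against 8164 and 42892 CPM in the other cells of the lineage, and Pou1f1 at 1202 and 1297 against 1040.3 and 793 CPM. The mesenchymal gene Dcn stood at 66.0 and 175 CPM in them, against 4.66 and 5.28 CPM in the other cells of the lineage. In the same comparison Col1a2 stood at 115 and 113 against 28.4 and 49.2 CPM. Col3a1 stood at 48.6 and 10.3 against 3.52 and 4.29 CPM, and Lum at 0 and 10.3 against 0.114 and 0 CPM. In mesenchymal cells Dcn stood at 5151 and 6229 CPM. The part of mesenchymal RNA in the cells with at least 5 Igf1 UMIs was not tested.

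Igf1r (chr7:67952827-68233668, + strand) was the flattest of the 9 genes over the 6 classes found in both libraries. Its levels ran from 57.5 CPM in mesenchymal to 81.4 CPM in differentiating cells of the male library, and from 85.2 CPM in the gonadotroph lineage to 124 CPM in differentiating cells of the female library. The highest class stood 1.42-fold and 1.46-fold above the lowest. Apart from differentiating cells, neighbours in this order had overlapping limits in both libraries.

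Against stem cells (70.3 and 112 CPM) Igf1r differed by 0.23 ± 0.07 in differentiating, -0.18 ± 0.07 in endocrine and -0.24 ± 0.08 in mesenchymal cells on the log2 scale (adjusted p = 0.010, 0.035 and 0.023, edgeR), each under 2-fold. Thinned to 5000 UMIs, 22.4% to 31.7% of male and 27.6% to 41.5% of female cells of the 6 classes showed a UMI of the receptor (30.9% to 60.7% and 49.5% to 76.4% without thinning).

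Igf2r (chr17:12682406-12769664, - strand) was highest in mesenchymal cells among the same 6 classes, with 35.8 and 34.9 CPM, then in stem cells, with 19.6 and 23.1 CPM. The other 4 classes lay between 10.7 and 20.8 CPM, with overlapping limits between neighbours. The male pituicyte-like cells stood at 61.8 CPM (limits 26.7 to 122), from 8 UMIs. Mesenchymal cells differed from stem cells by 0.75 ± 0.13 on the log2 scale, differentiating cells by -0.44 ± 0.11 and endocrine cells by -0.59 ± 0.12 (adjusted p = 2.8e-04, 0.0055 and 6.9e-04, edgeR), each under 2-fold. Airn, the antisense RNA of the imprinted Igf2r locus, overlaps Igf2r on the opposite strand.

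**Figure D1:**
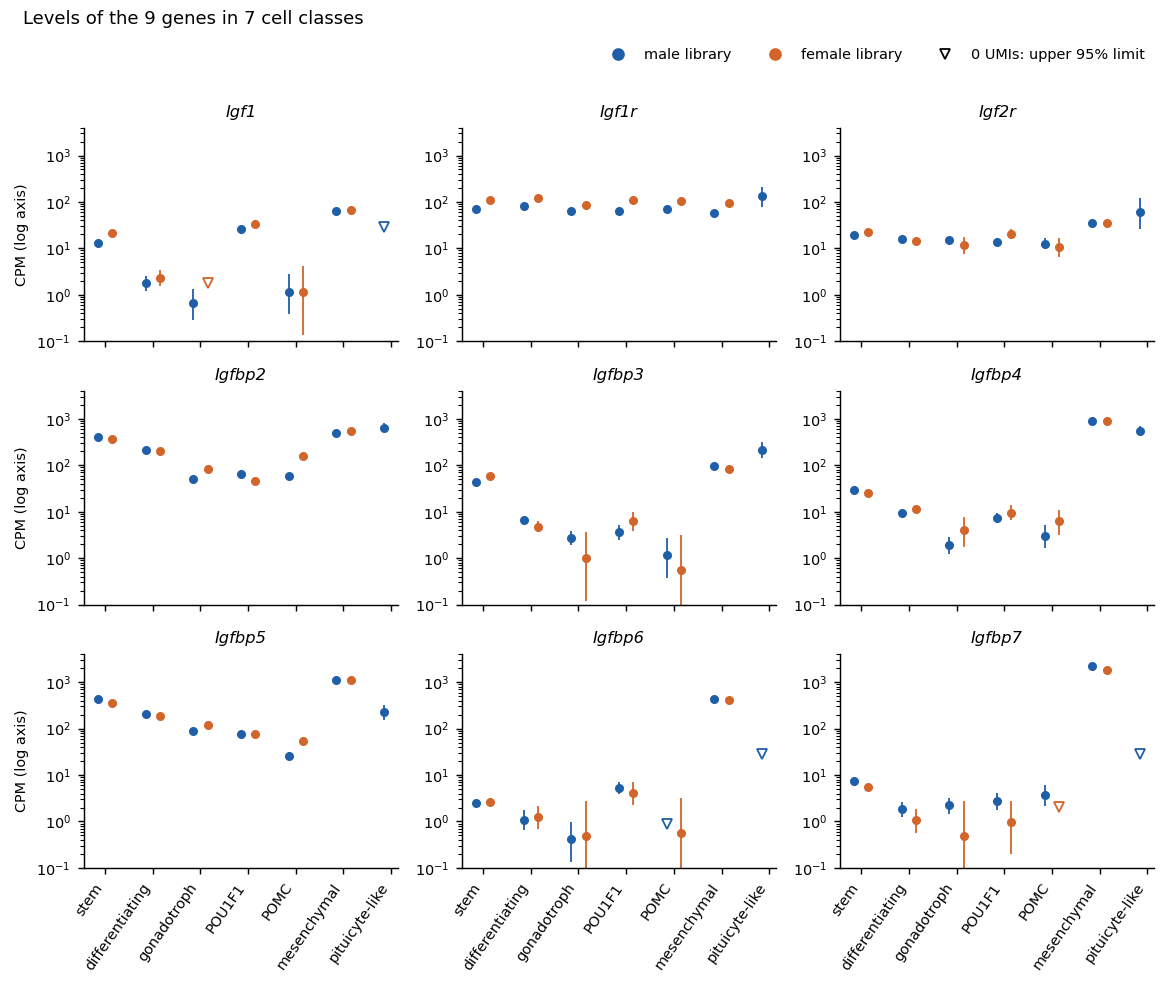
Levels of the 9 genes in CPM on a log axis (y) in 7 cell classes (x), with blue points for the male and orange points for the female library, exact Poisson 95% limits as bars, and open triangles at the upper limit where a class had 0 UMIs. Igf1r is flat over the 6 classes found in both libraries, whereas Igfbp7 falls from 2209 and 1794 CPM in mesenchymal cells to 7.33 and 5.40 CPM in stem cells.

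The binding proteins divided the tissue by abundance. The 6 genes together held 5266 and 4841 CPM in mesenchymal cells, 912 and 831 CPM in stem cells, 449.6 and 417 CPM in differentiating cells and 143 and 182 CPM in endocrine cells. For each Igf1r UMI there were 91.6 and 50.1 binding protein UMIs in mesenchymal, 13.0 and 7.45 in stem, 5.52 and 3.35 in differentiating and 2.17 and 1.81 in endocrine cells. Both scales gave the same order of the 4 classes in both libraries.

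The make-up changed with the class as well. In stem cells Igfbp2 made up 43.7% and 45.3% of binding protein UMIs and Igfbp5 47.2% and 43.8%. In mesenchymal cells Igfbp7 led with 42.0% and 37.1%, followed by Igfbp5 with 21.5% and 22.6% and Igfbp4 with 17.0% and 18.5%. Igfbp2 led in the POMC lineage with 63.8% and 71.8%. In the gonadotroph lineage Igfbp5 led with 61.2% and 57.8%, and in the POU1F1 lineage it held 47.8% and 53.5%.

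**Figure D2:**
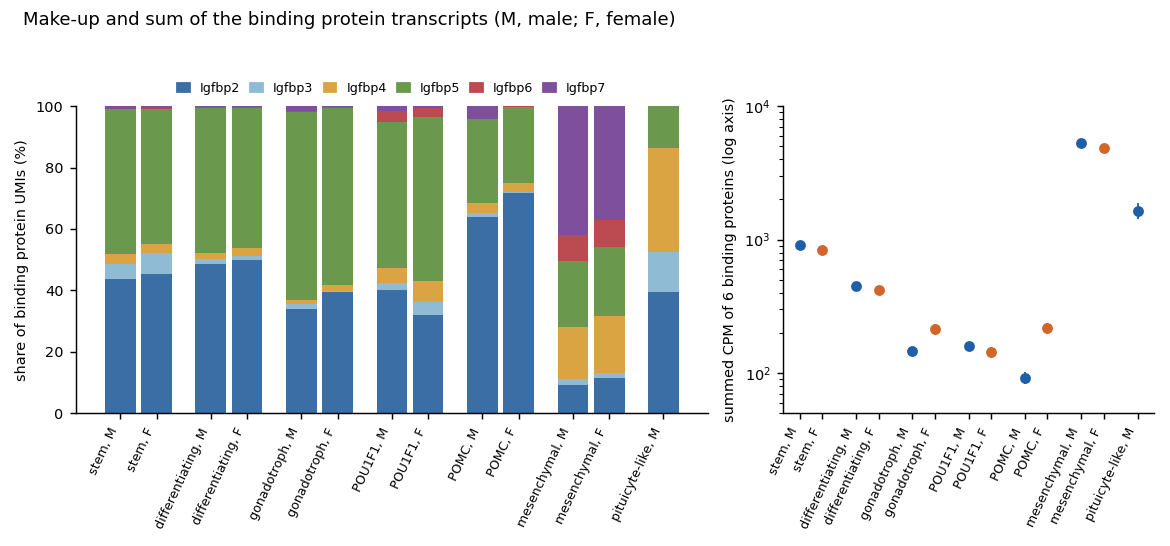
Left, share of each of 6 binding protein genes among binding protein UMIs (y, in %) for each class and library (x; M male, F female). Right, their summed level in CPM on a log axis with exact Poisson 95% limits. Igfbp2 and Igfbp5 fill most of each stem, differentiating and endocrine bar, and Igfbp7 fills 42.0% and 37.1% of the mesenchymal bars.

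Of the 9 transcripts, 5 were called lower in differentiating than in stem cells and 0 were called higher by edgeR. The 5 were Igf1, Igfbp3, Igfbp4, Igfbp6 and Igfbp7. Of all genes tested, 15.9% were called lower and 7.59% higher. At an unadjusted p under 0.05, 1 of the 9, Igf1r, lay on the higher side. The median log2 change was -1.07 over the 9 genes and -0.0025 over all genes.

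Endocrine cells were called lower than stem cells in 5 of the 9 genes, Igfbp2, Igfbp3, Igfbp4, Igfbp5 and Igfbp7. None was called higher by edgeR, and 0 lay on the higher side at an unadjusted p under 0.05, where 16.4% of all genes were called lower and 14.6% higher. Mesenchymal cells were called higher in 5 of the 9, Igf1, Igfbp4, Igfbp5, Igfbp6 and Igfbp7. None was called lower, though 1 of the 9, Igf1r, lay on the lower side at an unadjusted p under 0.05, where 13.9% of all genes were called higher and 17.7% lower. The median log2 changes over the 9 genes were -1.71 in endocrine and 1.51 in mesenchymal cells, and those over all genes 0.0040 and -0.08.

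**Figure D3:**
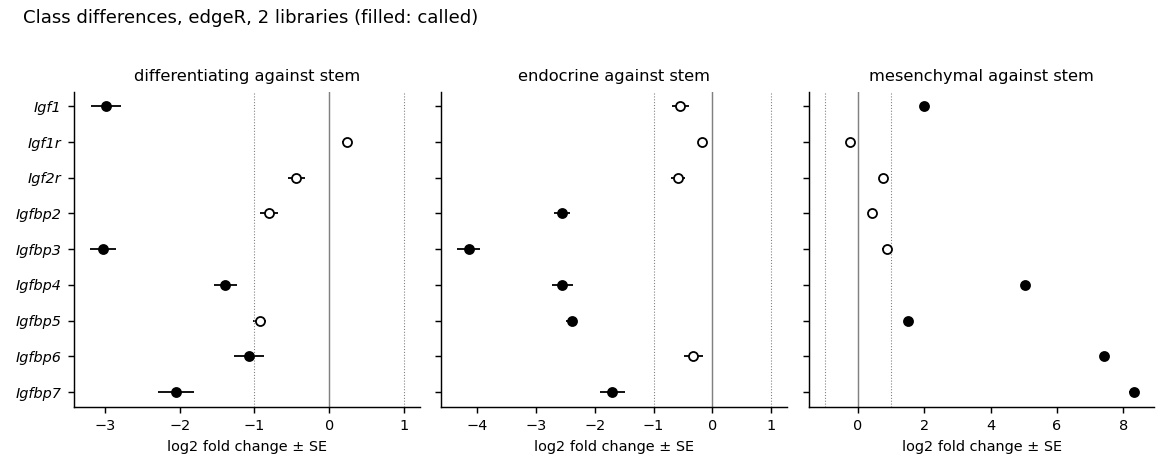
Log2 fold change against stem cells (x) of each of the 9 genes (y) in differentiating, endocrine and mesenchymal cells, by edgeR over 2 libraries, with bars of 1 SE and dotted lines at 2-fold. Filled points were called: they lie to the left in the first 2 panels, down to -4.15 for Igfbp3 in endocrine cells, and to the right in the mesenchymal panel, up to 8.32 for Igfbp7.

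Igfbp2 and Igfbp5 were the abundant binding proteins of the stem compartment. Igfbp2, a secreted binding protein found in many progenitor tissues, stood at 398 and 376 CPM in stem, 219 and 208 CPM in differentiating and 56.6 and 84.9 CPM in endocrine cells. Of the 6 classes found in both libraries, mesenchymal cells had the highest level, at 490.1 and 551 CPM. Against stem cells it changed by -0.81 ± 0.12 in differentiating and -2.56 ± 0.13 in endocrine cells on the log2 scale, and it differed by 0.44 ± 0.12 in mesenchymal cells (adjusted p = 9.6e-05, 5.0e-09 and 0.0079, edgeR). The first and the last of these were under 2-fold.

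Igfbp5, which binds matrix as well as IGFs, stood at 430.0 and 364 CPM in stem, 212 and 190.2 CPM in differentiating, 74.6 and 84.3 CPM in endocrine and 1134 and 1094 CPM in mesenchymal cells. Its differences from stem cells were -0.93 ± 0.09 in differentiating, -2.39 ± 0.09 in endocrine and 1.51 ± 0.09 in mesenchymal cells (adjusted p = 1.7e-06, 5.1e-10 and 1.6e-08, edgeR). Both genes went down in steps from stem to differentiating to endocrine cells in each library. The first step of Igfbp5 lay beside the 2-fold threshold. It was -1.04 with doubled marker thresholds, -1.07 without the highest Scrublet scores and -1.08 with thinned cells, and was then called.

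Single cells showed the same steps. Thinning left out 224 and 87 stem, 32 and 4 differentiating, 195 and 5 endocrine and 152 and 30 mesenchymal cells with fewer UMIs. Among cells thinned to 5000 UMIs, Igfbp2 was seen in 77.8% and 76.1% of stem cells and Igfbp5 in 75.6% and 67.6% (88.6% and 89.0%, and 86.4% and 81.2%, without thinning). Both were seen together in 58.4% and 51.6% of thinned stem and 28.9% and 26.6% of thinned differentiating cells. The mean number of the 6 binding protein genes seen in a thinned cell was 1.83 ± 0.79 and 1.71 ± 0.82 (SD over cells) in stem, 1.14 ± 0.77 and 1.11 ± 0.75 in differentiating and 4.53 ± 0.90 and 4.57 ± 0.86 in mesenchymal cells. In the POU1F1 lineage 74.3% and 73.1% of thinned cells showed none of the 6, against 3.97% and 6.38% of stem cells.

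**Figure D4:**
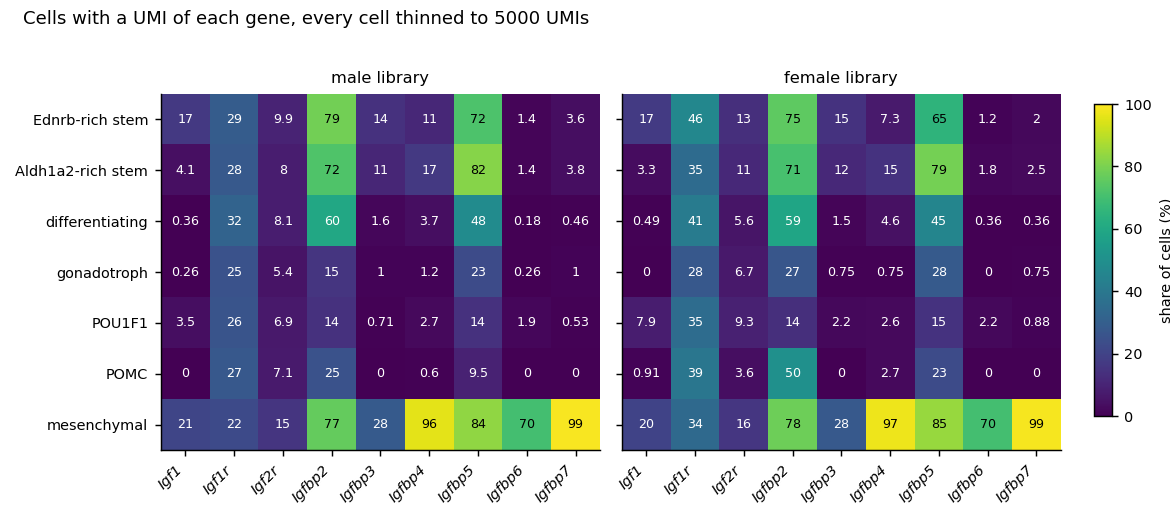
Share of cells with a UMI of each gene (x) in 7 groups of cells (y), every cell thinned to 5000 UMIs, for the male (left) and the female library (right), with colour and printed value giving the share in %. Igfbp7 is seen in 99.2% and 98.5% of mesenchymal cells. Stem cells are shown as Ednrb-rich and Aldh1a2-rich cells and not as a whole.

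Igfbp3 (chr11:7206086-7213923, - strand), the main carrier of IGF1 in serum, was called lower in differentiating and endocrine cells alike. It stood at 43.7 and 58.3 CPM in stem, 6.79 and 4.79 CPM in differentiating and 2.79 and 3.33 CPM in endocrine cells. The changes were -3.03 ± 0.17 and -4.15 ± 0.20 on the log2 scale (adjusted p = 2.6e-08 and 2.7e-09, edgeR). Mesenchymal cells had 96.9 and 84.0 CPM, 0.87 ± 0.14 above stem cells and under 2-fold (adjusted p = 1.9e-04, edgeR). Without thinning, a UMI of Igfbp3 was present in 641 of 2941 male and 625 of 3298 female stem cells. The 101 and 135 stem cells with at least 5 Igfbp3 UMIs held 49.4% and 60.8% of the Igfbp3 UMIs of stem cells.

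Igfbp4 (chr11:99041244-99054392, + strand), a binding protein that the protease PAPPA cleaves, was a mesenchymal transcript with a lower stem cell level. It stood at 896 and 896 CPM in mesenchymal and 30.0 and 24.9 CPM in stem cells. Differentiating cells held 9.28 and 11.2 CPM and endocrine cells 4.09 and 7.09 CPM. Against stem cells the differences were 5.04 ± 0.13 in mesenchymal, -1.39 ± 0.15 in differentiating and -2.56 ± 0.18 in endocrine cells (adjusted p = 9.1e-12, 8.2e-06 and 7.6e-08, edgeR).

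Within stem cells Igfbp4 lay on the other side from Igf1, with 22.0 and 19.1 CPM in Ednrb-rich and 38.4 and 32.4 CPM in Aldh1a2-rich cells. The log2 difference of -0.88 ± 0.15 passed the p threshold and not the fold threshold (adjusted p = 5.1e-04, edgeR), and with doubled marker thresholds it was -1.30 and called. Igfbp5 stood at 456 and 356 CPM in Ednrb-rich and 518 and 481 CPM in Aldh1a2-rich cells, a difference of -0.38 ± 0.14 that did not pass (adjusted p = 0.12, edgeR). Igfbp4 and Igfbp5 were the 2 of the 9 genes on the lower side at an unadjusted p under 0.05.

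Igfbp6 (chr15:102144362-102149511, + strand), which prefers IGF2, was mainly mesenchymal. It stood at 439.8 and 422 CPM there and at 2.47 and 2.62 CPM in stem cells, a log2 difference of 7.42 ± 0.09 (adjusted p = 5.3e-14, edgeR). Differentiating cells had 1.09 and 1.27 CPM (-1.07 ± 0.20 against stem cells, adjusted p = 7.0e-04, edgeR). A single cell in each library held 12 and 7 of the 18 and 14 UMIs behind that level, and the female cell was among those with the highest Scrublet scores. Within mesenchyme it was graded: cells rich in Apod or Mfap5 had 717 and 506 CPM and cells rich in Tcf21 had 306 and 342 CPM. The ratio of Tcf21-rich to Apod- or Mfap5-rich cells was 0.427 (limits 0.379 to 0.481) in the male and 0.676 (limits 0.563 to 0.809) in the female library, with no test.

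Igfbp7 (chr5:77349240-77408041, - strand), which binds IGFs weakly and is known from vessels and stroma, stood at 2209 and 1794 CPM in mesenchymal and 7.33 and 5.40 CPM in stem cells. The difference was 8.32 ± 0.14 on the log2 scale (adjusted p = 2.9e-13, edgeR). A UMI was present in 99.2% and 98.5% of thinned mesenchymal and 0.455% and 0.365% of thinned differentiating cells (94.2% and 99.7%, and 2.57% and 1.45%, without thinning), at median depths of 7466 and 7622 and of 13685 and 12423 UMIs. Mural cells, the pericytes and smooth muscle of vessels, had 3334 and 5213 CPM over 53 and 11 cells. That was 1.51 (limits 1.42 to 1.60) times the mesenchymal level in the male and 2.91 (limits 2.61 to 3.22) times in the female library.

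The low epithelial levels of the mesenchymal genes were set beside those of mesenchymal markers in the same cells. In stem cells Igfbp7 stood at 0.332% and 0.301% of its mesenchymal level, Igfbp6 at 0.561% and 0.620% and Igfbp4 at 3.35% and 2.78%. The 9 mesenchymal markers stood at a median of 0.105% and 0.0495% there, with highest values of 0.725% and 0.673%. In differentiating cells Igfbp7 stood at 0.0824% and 0.0605% of its mesenchymal level and the markers at a median of 0.0778% and 0.0342%. Igfbp7 fell by 2.05 ± 0.24 from stem to differentiating cells and by 1.71 ± 0.22 from stem to endocrine cells on the log2 scale (adjusted p = 1.6e-05 and 1.8e-05, edgeR), and its levels after the fall lay within the range of these markers. The part of free mesenchymal RNA in these low levels was not tested.

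The 3 endocrine lineages were compared with one another in pairs. The gonadotroph lineage was called lower than the POU1F1 lineage in 3 of the 9 genes and higher in 0 by edgeR. The 3 were Igf1, Igfbp4 and Igfbp6, where 8.32% of all genes were called lower and 4.6% higher. At an unadjusted p under 0.05, 1 of the 9, Igfbp5, lay on the higher side (0.43 ± 0.17). Igfbp4 stood at 1.90 and 3.96 CPM in the gonadotroph and 7.48 and 9.59 CPM in the POU1F1 lineage (-1.84 ± 0.31, adjusted p = 1.8e-04, edgeR), and Igfbp6 at 0.414 and 0.495 against 5.28 and 4.16 CPM (-3.47 ± 0.39, adjusted p = 1.4e-06, edgeR). Igfbp4 in the POU1F1 lineage came from few cells, with a UMI in 30 of 594 male and 17 of 230 female cells. Of these, 3 male and 2 female cells had at least 5 Igfbp4 UMIs, up to 19 and 7 in a cell. They held 43.3% of the Igfbp4 UMIs of the lineage in the female library and more in the male library. The part of these cells in the Igfbp4 call was not tested. The 9 mesenchymal markers summed to 16.6 and 6.93 CPM in the gonadotroph and 53.6 and 72.9 CPM in the POU1F1 lineage, of which Col1a2 made up 2.23 and 0.990 and 31.1 and 51.2 CPM, and their part in the result was not tested.

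Against the POMC lineage, the gonadotroph lineage was called higher in Igfbp5 (1.22 ± 0.21, adjusted p = 1.4e-04, edgeR) and lower in Igfbp4 (-1.18 ± 0.44, adjusted p = 0.045, edgeR), 1 of the 9 each way, where 7.61% of all genes were called higher and 9.99% lower. Igfbp4 stood at 1.90 and 3.96 CPM in the gonadotroph and 3.06 and 6.22 CPM in the POMC lineage, and these unscaled CPM gave ratios of 0.622 (limits 0.302 to 1.34) and 0.637 (limits 0.222 to 1.74), under 2-fold and with limits that include 1. The fit used TMM scaling, and Pomc made up 266633 and 130623 CPM of the POMC sums. In cells with at least 2000 genes the Igfbp4 change was -0.94 and not called. With thinned cells neither call was made, the changes being 0.97 and -0.67, while 1 other of the 9 genes was called lower. The POU1F1 lineage was called higher than the POMC lineage in Igf1 and in Igfbp6 (4.44 ± 0.66, adjusted p = 3.7e-05, edgeR) and lower in Igfbp2 (-1.05 ± 0.24, adjusted p = 0.0027, edgeR), where 8.67% of all genes were called higher and 7.5% lower. The Igfbp2 difference was carried by the female library: the ratio of POU1F1 to POMC lineage was 1.09 (limits 0.943 to 1.27) in the male and 0.294 (limits 0.239 to 0.361) in the female library.

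Within the gonadotroph lineage, Igfbp2 and Igfbp5 were lower in cells with maturation markers. Gonadotroph-lineage cells with at least 2 UMIs of Gnrhr, Lhb and Fshb had 23.2 and 16.1 CPM of Igfbp2 and 38.7 and 26.9 CPM of Igfbp5. Those with 0 had 66.2 and 94.9 and, for Igfbp5, 120.3 and 137 CPM. The groups held 230 and 13, and 544 and 116, cells in the male and female library. Their Igfbp5 ratio was 0.321 (limits 0.267 to 0.385) in the male and 0.196 (limits 0.0631 to 0.464) in the female library. The 13 female cells with these markers held 8 binding protein UMIs in all. Over the whole lineage, 29 of 845 male and 7 of 136 female cells had at least 5 Igfbp2 UMIs. They held 37.4% and 37.3% of its Igfbp2 UMIs, and 13 and 3 of them were among the highest Scrublet scores. For Igfbp5, 72 and 14 such cells held 56.1% and 54.8%, and 15 and 3 were so marked. Among differentiating cells, Smoc2-rich cells held 3.77 and 5.88 CPM of Igfbp4 and cells rich in Cdkn1a or Dll1 held 22.6 and 26.5 CPM. These ratios and levels were not tested.

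The pituicyte-like cells were 1 sum of 10 male cells, with no replicate and no test. Igfbp2 stood at 642 CPM (limits 511 to 795), Igfbp4 at 549 CPM (429 to 692), Igfbp5 at 224 CPM (150.1 to 322) and Igfbp3 at 216 CPM (144 to 313). Igf1, Igfbp6 and Igfbp7 had 0 UMIs, where 3 UMIs would have been 23.2 CPM. Relative to male stem cells Igfbp4 stood at 18.3 (limits 14.2 to 23.2), Igfbp3 at 4.95 (limits 3.28 to 7.18) and Igfbp5 at 0.521 (limits 0.349 to 0.749). Of the 9 mesenchymal markers 7 were at 0 in these 10 cells, and of the 6 mural markers 6.

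The male and the female library were compared without a test, since each sex was 1 library and sex, animals, sort and library preparation cannot be told apart. Igf1r was higher in the female library in each class. The female over male ratio was 1.59 (limits 1.51 to 1.67) in stem, 1.53 (limits 1.42 to 1.65) in differentiating, 1.53 (limits 1.40 to 1.67) in endocrine and 1.68 (limits 1.41 to 2.0) in mesenchymal cells. Among genes with at least 20 CPM and 30 UMIs, 1.23%, 0.916%, 1.88% and 1.84% were at least 1.5-fold higher in the female library in these classes, and 1.17%, 1.09%, 1.89% and 4.32% in the male library. Of the 9 genes, 7, 3, 3 and 9 reached those levels. Of these, Igf1r passed 1.5-fold in all 4 classes, Igf1 passed in stem cells, and 0 passed in the male direction. The median ratio of all these genes was 0.97, 0.97, 0.96 and 0.95. With thinned cells Igf1r stood at 1.59, 1.49, 1.44 and 1.83.

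Igf1 stood 1.60 (limits 1.43 to 1.79) times as high in female as in male stem cells, and 1.40 times with cells thinned. Ednrb-rich cells were 397 and 974 of 2941 and 3298 stem cells. Within them Igf1 had overlapping limits (31.1 to 42.3 CPM in the male and 36.5 to 44.7 CPM in the female library), as it had within Aldh1a2-rich cells (6.26 to 9.77 and 7.48 to 12 CPM) and within the remaining stem cells, at 14.4 and 17.8 CPM. Within cycling stem cells, at 9.64 and 13.5 CPM, the limits did not overlap (8.24 to 11.2 and 11.2 to 16.1 CPM). In mesenchymal cells the ratio was 1.03 (limits 0.851 to 1.25).

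Igfbp2 and Igfbp5 differed most in the POMC lineage. Igfbp2 stood at 58.9 and 155 CPM, a female over male ratio of 2.64 (limits 2.22 to 3.15), and Igfbp5 at 25.4 and 53.7 CPM, a ratio of 2.11 (limits 1.59 to 2.81). In the POU1F1 lineage Igfbp2 lay the other way, at 64.4 and 45.7 CPM and a ratio of 0.710 (limits 0.587 to 0.853). Hormone transcripts took different shares of these sums. Pomc stood at 266633 and 130623 CPM in the POMC lineage, and Gh at 7915 and 41564 CPM in the POU1F1 lineage. Their part in the ratios was not tested.

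**Figure D5:**
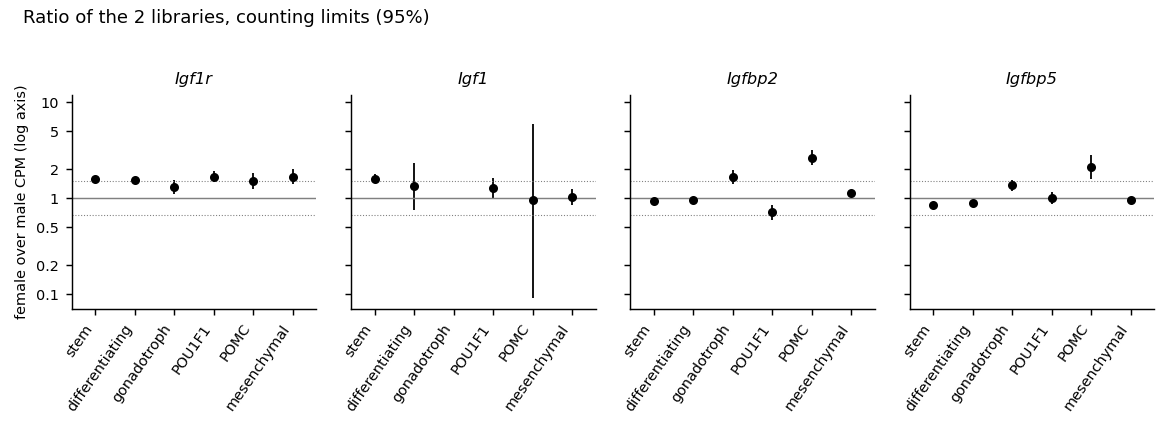
Female over male ratio of the CPM (y, log axis) of 4 genes in 6 cell classes (x), with 95% counting limits as bars, a line at 1 and dotted lines at 1.5-fold. Igf1r lies above 1 in every class shown, from 1.30 in the gonadotroph lineage to 1.68 in mesenchymal cells, while Igfbp2 lies at 0.710 in the POU1F1 and 2.64 in the POMC lineage.

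The rest of the pathway was taken from a list of 36 genes, of which 31 were tested. In differentiating cells 3 were called higher and 6 lower than in stem cells, in endocrine cells 4 and 8, and in mesenchymal cells 5 and 4. Of all genes tested, 7.59% and 15.9%, 14.6% and 16.4%, and 13.9% and 17.7% were called in the same order. The medians of their log2 changes were -0.05, -0.07 and 0.34. Among ligands, Igf2 was counted at 3.95 and 5.32 CPM in stem and 13.4 and 10.3 CPM in mesenchymal cells. Its count is uncertain because Gm49394 overlaps it on the same strand, so a low level of Igf2 cannot be read from it. Insr, the insulin receptor, stood at 13.4 and 16.1 CPM in stem cells and differed by -0.43 ± 0.12 in differentiating, -0.05 ± 0.11 in endocrine and -0.14 ± 0.15 in mesenchymal cells. Igfbp1 and Ins1 were at 0 in these classes.

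Irs2 and Irs4, adaptors that couple the receptor to PI3K, changed in opposite ways. Irs2 fell from 80.9 and 89.7 CPM in stem cells to 20.6 and 26.1 CPM in differentiating and 18.3 and 28.5 CPM in endocrine cells, with log2 changes of -1.83 ± 0.12 and -2.0 ± 0.12 (adjusted p = 7.1e-08 and 2.1e-08, edgeR). Irs4 rose from 6.25 and 5.75 CPM in stem to 14.0 and 20 CPM in differentiating and 71.3 and 65.7 CPM in endocrine cells (1.52 ± 0.17 and 3.46 ± 0.15, adjusted p = 8.2e-06 and 1.2e-09, edgeR). Pik3r1, a regulatory subunit of PI3K, rose in differentiating cells from 79.2 and 79.0 to 265 and 280.1 CPM (1.83 ± 0.08, adjusted p = 3.0e-09, edgeR). Grb14, an adaptor that inhibits the insulin receptor, fell from 78.5 and 63.1 CPM in stem to 5.81 and 5.15 CPM in mesenchymal cells (-3.69 ± 0.14, adjusted p = 4.4e-10, edgeR) and was called lower in differentiating and endocrine cells too.

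Among genes that act on the binding proteins, Htra1, a serine protease, stood at 112 and 115 CPM in mesenchymal and 4.08 and 3.05 CPM in stem cells (5.0 ± 0.15, adjusted p = 4.2e-11, edgeR). Pappa, whose product cleaves IGFBP4, was at 0.201 and 0.402 CPM in stem and 0.20 and 0.396 CPM in mesenchymal cells. Stc1, an inhibitor of PAPPA, fell from 5.97 and 4.02 CPM in stem to 1.46 and 0.904 CPM in differentiating cells (-2.01 ± 0.26, adjusted p = 3.6e-05, edgeR). Igfbpl1, a relative of the binding proteins, stood at 20 and 13.9 CPM in endocrine and 0.353 and 0.374 CPM in stem cells (5.47 ± 0.24, adjusted p = 1.5e-09, edgeR).

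Genes with the pattern most like each of the 9 were sought among 7946 genes by Pearson's r of log2(CPM + 5) over 12 sums, 6 classes in each library. The sums share 2 libraries, and r is a description. For Igf1 they were Rras (0.980), Serpinf1 (0.975), Dnajb4 (0.974), for Igf1r AC160336.1 (0.895), Msantd4 (0.844), mt-Nd1 (0.842) and for Igf2r Tnfaip8 (0.977), Crlf3 (0.975), Ednra (0.973). Igfbp2 had Dusp6 (0.957), Socs2 (0.955), Slc39a10 (0.948), and Igfbp5 had Flna (0.989), Tjp1 (0.981), Thap12 (0.981). Igfbp3 had Ccdc102a (0.990), Col12a1 (0.990), Heph (0.990). Igfbp4 had Selenbp1 (0.994), Cd302 (0.993), Myo1c (0.993), Igfbp6 had Rem1 (0.997), Thbs2 (0.996), Pcolce (0.995) and Igfbp7 had Rasgrp2 (0.998), Twist2 (0.998), Nid1 (0.998). Among the 9 genes Igfbp6 and Igfbp7 were closest (0.988), followed by Igfbp4 with Igfbp7 (0.973) and with Igfbp6 (0.970). Igf1r had the lowest r with its nearest gene. Its highest class stood 1.42-fold and 1.46-fold above its lowest. The female over male ratio of Igf1r ran from 1.30 to 1.68 over the same classes. Its r values therefore join class and library differences, which were not separated.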

How the data were processed

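Transcripts of single sorted cells were measured by droplet 3′ sequencing in 1 male and 1 female library. The authors aligned the reads to mm10, with eGFP added, in Cell Ranger 3.0.2, and deposited raw UMI counts per gene and barcode, with no normalization. The submitters' processing notes also name R 3.6.0 and Seurat 3 and 4. The chemistry is named as both v2 and v3 in the labels.

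Barcodes under 50 genes were removed, as were those whose mitochondrial share passed a limit at 3 SD above the library mean, which was 20.4% for male and 26.1% for female cells. This left 10410 of 10569 and 5711 of 5796 barcodes. Total UMIs per library were 105883748 and 62830305. Cells of a mixed class, 322 male and 86 female, were left out. They met 2 endocrine lineages, mesenchymal with epithelial or pituicyte-like thresholds, or pituicyte-like with differentiating or endocrine thresholds. Endocrine cells that met the Sox2 and other stem marker thresholds but not the differentiating ones were also set aside as mixed. The effect of this on the endocrine levels was not tested. Scrublet scores (scanpy 1.11.5) served for an alternative only. UMIs were summed per class and library and tested in edgeR 4.0.16 (TMM factors, filterByExpr, quasi-likelihood test, Benjamini-Hochberg adjustment) under R 4.3.3, after a test on simulated data, with DESeq2 1.42.0 as an alternative. The design had listed the pituicyte-like class in this fit, but the female library held 0 such cells, so it was left out. Intervals are exact Poisson or Clopper-Pearson intervals and cover counting error only.

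The genes, the lists and the classes were chosen with earlier results of these data known, and the UMI thresholds were set on the markers alone after their distributions had been seen. Named are the 9 genes, genes of the pathway list, the 3 genes most like each of the 9, and others where a result turns on them.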

Additional observations from a re-analysis of the deposited data

Results flagged for a closer look

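In 2 comparisons within a library the ratio lay on opposite sides of 1 in the male and the female library, with limits that left out 1 in both, and the difference between the libraries was not tested. Igfbp2 in the gonadotroph lineage over the POU1F1 lineage stood at 0.776 (limits 0.691 to 0.870) in the male and 1.83 (limits 1.46 to 2.30) in the female library. Igfbp5 in Tcf21-rich over Apod- or Mfap5-rich mesenchymal cells stood at 1.14 (limits 1.05 to 1.24) in the male and 0.78 (limits 0.699 to 0.869) in the female library. With 1 library per sex, sex and library cannot be told apart.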

How the results depend on the processing

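The counts of the 9 genes called against stem cells (5 lower, 5 lower and 5 higher in differentiating, endocrine and mesenchymal cells) were the same with DESeq2 and without the replicate block. With either library left out they were 4 to 5, 5 and 5 to 6, counted at 2-fold with no test. Without the replicate block, the count of pathway genes called higher in endocrine cells was 3 in place of 4. The class comparisons were paired through this block, since both libraries gave every class in the fit. For male against female no paired analysis was possible because each sex had 1 library. The same pathway count was 2 with DESeq2, 2 with thinned cells and 2 to 5 with a library left out. Doubled marker thresholds gave 1 gene lower in Ednrb-rich stem cells (0 as reported). A fit with the lone pituicyte-like sum, added after the data were seen, is not reported because that class has no replicate.

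Between lineages the counts were less stable, except that 3 genes lower in gonadotroph than POU1F1 lineage stayed at 3 and became 4 only without the male library. Gonadotroph over POMC lineage, 1 gene higher became 2 with either library left out and 0 with thinned cells, and 1 gene lower became 2 to 3 with a library left out, 2 with doubled thresholds, 0 in cells with at least 2000 genes and 3 without the highest Scrublet scores. POU1F1 over POMC lineage, 2 genes higher became 4 with either library left out and 3 with DESeq2, with no filter and with doubled thresholds, and 1 gene lower became 0 to 1, and 0 with doubled thresholds. Of genes over 1.5-fold higher in the female library, 2 in stem cells became 1 and 1 in differentiating cells became 0 with thinned cells, and 1 in endocrine cells became 2 with doubled thresholds, in cells with at least 2000 genes and without the highest Scrublet scores. With a library left out, a reversal was counted only for called genes, and none occurred. Sign changes of uncalled genes in those settings are therefore not listed. In the other settings the changes that reversed were all of uncalled genes: Igfbp6 in endocrine against stem cells (0.0513 with thinned cells), Igfbp2 in gonadotroph against POU1F1 lineage (-0.20 with doubled thresholds), and Igfbp7 in gonadotroph against POU1F1 lineage (0.0531 with doubled thresholds, 0.87 thinned), in gonadotroph against POMC lineage (1.01 in cells with at least 2000 genes, 5.64 thinned) and in POU1F1 against POMC lineage (1.11 and 4.77 likewise). The cause was not tested. Over all genes, those called lower in Ednrb-rich stem cells numbered 174, and 114 without the block. With thinned cells the genes called between gonadotroph and POMC lineage fell from 1144 higher and 1501 lower to 699 and 887, and those between POU1F1 and POMC lineage from 1303 and 1128 to 732 and 722, with fewer cells and UMIs in the sums.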

Other observations

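The POU1F1-lineage cells with at least 5 Igf1 UMIs, 12 male and 7 female cells, were examined after their values were seen. By the smaller of the 2 library ratios, with 20 CPM added to each level, the genes that stood out most beside Igf1 were Sparc, Hspb1, Postn, Id3 and Gas6. Sparc, a matrix protein gene, stood at 532 and 752 CPM in these cells and at 40.5 and 68.0 CPM in the other cells of the lineage. Postn, another matrix protein gene, stood at 184 and 278 CPM against 3.63 and 2.31 CPM, and Gas6, a ligand of TAM receptors, at 195 and 494 CPM against 8.29 and 19.5 CPM. Prl was at 0 in both libraries. Igfbp6 stood at 66.0 and 41.2 CPM against 3.29 and 2.97 CPM. Their median depth was 17170.5 and 12791 UMIs, against 13305 and 12301 UMIs. No test was run on these cells.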
